A study of Homo sapiens with 6 samples.

Results

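The 10 genes described here encode enzymes that make, release, reduce or inactivate androgens: CYP17A1, STS, HSD3B1, AKR1C3, SRD5A1, SRD5A3, HSD17B6, DHRS9, HSD17B4 and HSD17B11. They were chosen by name from the 55765 gene symbols counted, with earlier results of these data known. All 10 have a row in the count data. RNA-sequencing counts of 6 libraries of C4-2, an established castration-resistant subline of the LNCaP prostate cancer cell line, were compared. The cells were grown in medium with fetal bovine serum and kept for 72 h either with DMSO, the solvent control (3 libraries), or with 1 nM of the synthetic androgen R1881, also called methyltrienolone (3 libraries). The androgen-treated group is named SAL as in the labels, for a supraphysiological androgen level, and each group has replicates 1, 2 and 3. The comparison asks how the expression of these enzymes differs when the androgen receptor is given an excess of ligand. Both groups are 1 cell line, and the serum in the medium was shared by them. According to the study, the sequencing experiment was repeated independently for each replicate number. The p-values set the difference between the groups against its variation over these repeats of a single line. The variance of each gene was estimated with information shared from the other genes tested.

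Androgens are built from cholesterol, which is cleaved and then hydroxylated and split by CYP17A1 to weak adrenal-type precursors. These precursors circulate largely as sulfates, are freed by steroid sulfatase, and are turned into testosterone and then dihydrotestosterone by hydroxysteroid dehydrogenases and steroid reductases. Oxidation of the hydroxyl group at carbon 17 and conjugation to glucuronic acid take the active steroids out again, and prostate cancer cells that grow under castration are known to keep part of this machinery.

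After filtering of low counts, 6 of the 10 enzymes could be tested. Of these, 4 rose in SAL (HSD17B11, STS, SRD5A1 and HSD17B4), none fell (0 also at an unadjusted p under 0.05 and with DESeq2), and SRD5A3 and HSD17B6 did not pass the test. Over all 16835 genes tested, 11.5% rose and 9.37% fell by the same rule, a Benjamini-Hochberg adjusted p under 0.05 in edgeR's quasi-likelihood test with the replicate number as a block. The other 4 enzymes, CYP17A1, HSD3B1, AKR1C3 and DHRS9, had 0 to 6 counts in every library and were left out by the filter. The median log2 fold change of the 6 tested enzymes was 0.55, with a range from -0.59 to 1.41, beside a median of -0.00110 over all genes tested. The 4 enzymes that rose were higher in SAL in all 3 same-numbered pairs, which was also the case for 25.9% of all genes tested, and HSD17B6 was lower in all 3 pairs, as were 25.3% of all genes.

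**Figure D1:**
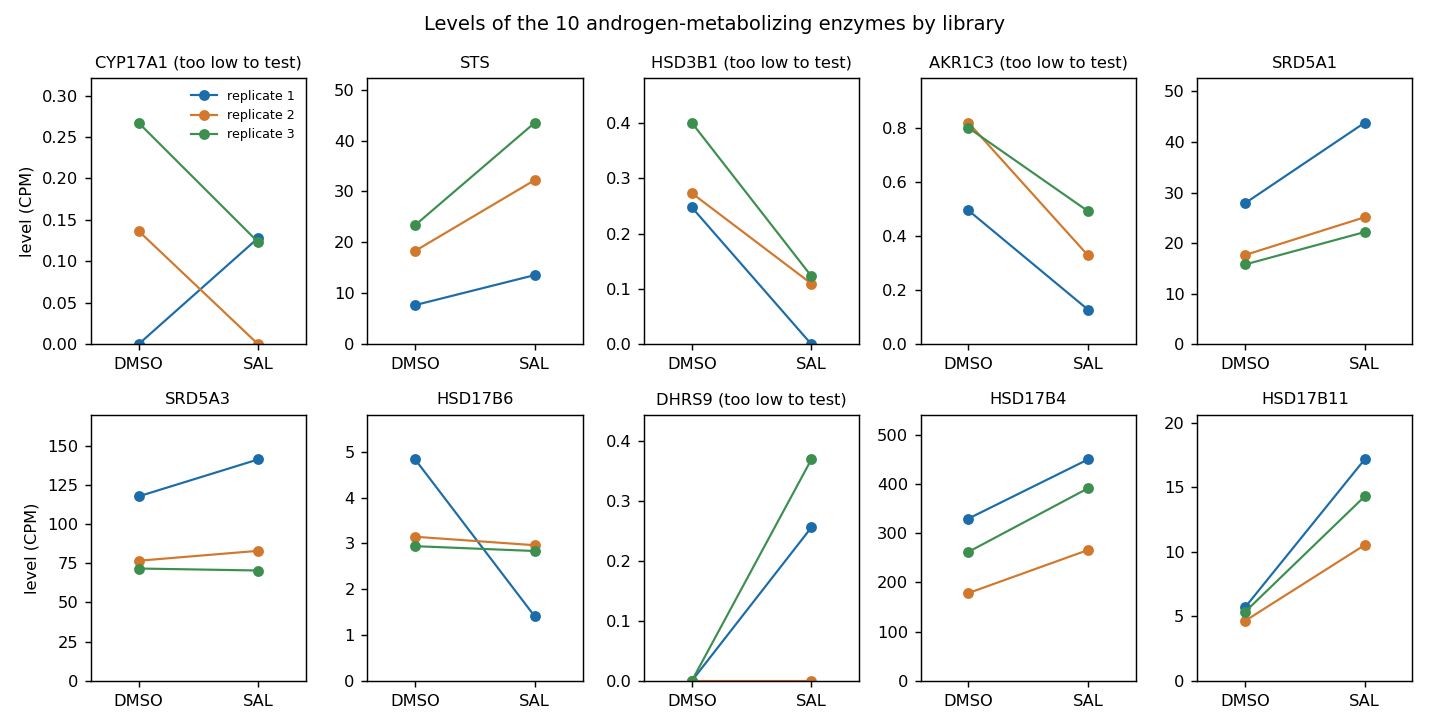
Levels of the 10 enzymes in CPM (counts scaled by TMM-adjusted library size, linear axes starting at 0, a different scale in each panel) in the DMSO and SAL libraries, with 1 line joining the libraries of each replicate number. The lines of STS, SRD5A1, HSD17B4 and HSD17B11 all climb from DMSO to SAL, and for HSD17B11 alone among the 6 tested enzymes all 3 SAL points lie above all 3 DMSO points.

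After removal of ribosomal RNA genes, the DMSO libraries held 6931042 to 8186483 counts on genes and the SAL libraries 8112598 to 9776990. The known androgen-induced gene KLK3, which encodes prostate-specific antigen, rose by a log2 fold change of 1.21 (standard error 0.10, edgeR adjusted p = 3.33e-07). All 9 markers of luminal prostate epithelium were detected, with a summed level of 2735 to 5225 CPM (counts relative to library size) in DMSO and 5006 to 10250 CPM in SAL, against 0.134 to 0.372 and 0.128 to 0.329 CPM for 3 basal markers, of which KRT5 had no counts. The summed stromal markers, of which COL1A2 and DES had no counts, lay at 7.43 to 38.2 CPM in DMSO and 19.2 to 50.3 CPM in SAL. Of the stromal markers, ACTA2 rose by a log2 fold change of 2.61 (edgeR adjusted p = 6.63e-06), while VIM and COL1A1 did not pass the test (adjusted p = 0.102 and 0.577). Markers of endothelium and blood, with PTPRC at 0, summed to 0.743 to 3.83 CPM and 0.768 to 4.17 CPM, and neuroendocrine markers to 3.97 to 12.2 CPM and 4.48 to 8.11 CPM. The part of these markers in the results was not tested. The replicate 1 libraries stood apart in both groups, with 11.7% (DMSO) and 9.87% (SAL) of the counts on short non-coding RNAs against 1.07% to 5.37% in the other libraries, and calls that were lost without them are given beside the gene. A change in bulk RNA cannot tell fewer expressing cells from less RNA per cell.

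The sequences upstream of the 4 genes that rose are shown because each was called higher in SAL. Shared regulation of these genes was not tested. They were taken from RefSeq's promoter table (GRCh38.p14), which had entries for 9 of the 10 enzymes, 18 starts in all, with none matched for HSD17B6. Each entry was placed in GRCh37, the assembly of hg19, by an exact match, and each stretch is given 5′ to 3′ on the gene's strand, cut to the bases outside annotated exons. Of 5 STS starts, the first by position is shown, and gene counts cannot tell which start these cells use. Capitals mark matches, on either strand, to the androgen receptor half-site AGAACA, the GC box GGGCGG, the CCAAT box CCAAT or the TATA box TATAAA.
HSD17B11, chr4:88312341-88312590, minus strand: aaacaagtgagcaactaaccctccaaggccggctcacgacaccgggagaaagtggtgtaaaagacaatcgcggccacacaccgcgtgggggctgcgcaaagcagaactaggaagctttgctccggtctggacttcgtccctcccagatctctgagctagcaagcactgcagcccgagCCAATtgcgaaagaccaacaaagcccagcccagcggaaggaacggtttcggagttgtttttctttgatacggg
STS, chrX:7065081-7065277, plus strand: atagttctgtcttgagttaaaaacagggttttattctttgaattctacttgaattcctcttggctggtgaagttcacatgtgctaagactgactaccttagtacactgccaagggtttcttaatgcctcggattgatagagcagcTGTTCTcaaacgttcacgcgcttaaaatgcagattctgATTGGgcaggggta
SRD5A1, chr5:6633405-6633539, plus strand: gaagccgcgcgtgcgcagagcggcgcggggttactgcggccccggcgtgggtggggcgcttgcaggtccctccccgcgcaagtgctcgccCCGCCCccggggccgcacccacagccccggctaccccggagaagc
HSD17B4, chr5:118787942-118788159, plus strand: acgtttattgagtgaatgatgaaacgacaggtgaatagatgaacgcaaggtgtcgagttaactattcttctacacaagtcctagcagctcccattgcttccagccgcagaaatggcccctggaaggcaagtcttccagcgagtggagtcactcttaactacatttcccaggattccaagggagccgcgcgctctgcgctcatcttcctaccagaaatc

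The half-site letters occurred in 4 of the 18 member entries, 2 of STS and 2 of DHRS9, within the 250 bases before the start, and in 12.4% of all 35093 promoters of this length. In the STS stretch shown, the half-site lay 105 bases before the RefSeq start and a CCAAT box 67 bases before it. HSD17B11 had a CCAAT box 73 bases before its start, SRD5A1 a GC box 58 bases before its start, and HSD17B4 a GC box 11 bases before its start, in a stretch annotated as exon and therefore not shown. A pair of facing half-sites with 3 bases between them, the arrangement of a full androgen response element, were found in none of the 18 entries and in 0.00285% of all promoters. GC boxes were present in 3 member entries and 42.6% of all promoters, CCAAT boxes in 5 entries and 32.0%, and TATA boxes in 5 entries and 10.7%. Some starts of 1 gene overlap in sequence, and a match of letters is not evidence of binding.

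The enzymes that supply precursors differed widely in level. CYP17A1, the P450 that makes C19 steroids from pregnenolone or progesterone (chromosome 10, 104590288 to 104597229, minus strand, GRCh37), was covered by 0, 1 and 2 counts in replicates 1, 2 and 3 of DMSO and by 1, 0 and 1 in SAL. A count of 0 allows up to 3 counts, which corresponds to 0.329 to 0.41 CPM depending on the library, and both groups were under this floor, so no fold change is given. In the newer annotation used here for positions, 41.9% of its exon length is shared with WBP1L on the opposite strand. Reads were counted without regard to strand, so a read wholly inside a shared stretch would be assigned to neither gene. The extent of sharing in the annotation used for counting was not checked. WBP1L itself rose, with a log2 fold change of 0.62 (edgeR adjusted p = 0.00105).

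HSD3B1, which oxidizes the 3-hydroxyl of precursors such as DHEA to yield androstenedione (chromosome 1, 120049821 to 120057677, plus strand), had 2, 2 and 3 counts in DMSO and 0, 1 and 1 in SAL. These levels did not overlap between the groups, but all lay at or under the floor of 3 counts, and no difference can be read from them. Its near-identical relative HSD3B2 had 1 count in 1 library of each group, and the pseudogene HSD3BP5 had 0 to 14 counts. Reads that map equally to such copies were not counted for any of them.

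STS, steroid sulfatase, which frees DHEA and other steroids from their sulfates (chromosome X, 7065278 to 7772399, plus strand), was well measured and rose. Its level was 7.68, 18.3 and 23.4 CPM in DMSO replicates 1, 2 and 3 and 13.6, 32.2 and 43.5 CPM in the SAL replicates. The SAL library of each number was the higher one, but replicate 1 was low in both groups, and so the ranges of the groups overlapped. The mean went from 16.5 ± 8.01 to 29.8 ± 15.1 CPM (SD, n = 3), and the log2 fold change was 0.85 (95% interval 0.56 to 1.13, standard error 0.13, edgeR adjusted p = 0.000293), a 1.80-fold difference. The highest library was 3.04 times the lowest in DMSO and 3.20 times in SAL, whereas the pairs gave log2 changes of 0.80, 0.81 and 0.89. STS thus varied more between replicate numbers than its change varied between pairs. The pseudogene STSP1 had no counts.

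AKR1C3, the aldo-keto reductase that converts androstenedione to testosterone and is often raised in castration-resistant tumours (chromosome 10, 5077546 to 5149878, plus strand), was scarcely detected. It had 4, 6 and 6 counts in DMSO and 1, 3 and 4 in SAL, and its level did not overlap between the groups by the narrow margin of 0.496 against 0.493 CPM. The ratio of summed counts, scaled to library size, was 0.457 with an exact interval of 0.169 to 1.13 that covers counting error only, so a difference was not detectable at this depth. The relatives AKR1C1, AKR1C2 and AKR1C4, with which it shares much of its sequence, had 0 to 8 counts. Without the low-count filter, edgeR gave AKR1C3 an adjusted p of 0.586, CYP17A1 0.938, HSD3B1 0.723 and DHRS9 0.538.

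SRD5A1, the type 1 steroid reductase that turns testosterone into dihydrotestosterone or androstenedione into androstanedione (chromosome 5, 6633540 to 6674499, plus strand), rose. Its level was 27.9, 17.6 and 15.8 CPM in the DMSO replicates and 43.8, 25.1 and 22.2 CPM in the SAL replicates. Replicate 1 was the highest in both groups, and 2 SAL libraries lay below the highest DMSO library. The mean went from 20.4 ± 6.52 to 30.4 ± 11.7 CPM (SD, n = 3), with a log2 fold change of 0.56 (95% interval 0.29 to 0.83, standard error 0.13, edgeR adjusted p = 0.00535), and the pairs gave 0.65, 0.50 and 0.49. Without replicate 3 in either group, its log2 fold change was 0.58 and its adjusted p 0.0743. The processed pseudogene SRD5A1P1 had 3 to 20 counts, and the type 2 reductase SRD5A2, the main form of the normal prostate, had at most 1 count in any library.

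SRD5A3, named as the type 3 steroid reductase and known also as the polyprenol reductase of protein glycosylation (chromosome 4, 56212380 to 56239267, plus strand), was the more abundant reductase transcript per length and did not pass the test. Its level was 118, 76.6 and 71.6 CPM in DMSO and 141, 82.9 and 70.4 CPM in SAL. The groups overlapped almost fully, and the pairs gave log2 changes of 0.26, 0.11 and -0.03. The log2 fold change was 0.12 (95% interval -0.09 to 0.33, edgeR adjusted p = 0.432), so an increase of more than 1.26-fold lay outside the interval. The antisense transcript SRD5A3-AS1, which overlaps 14.0% of its exon length on the other strand, had 9 to 38 counts, and its log2 fold change of 0.13 did not pass the test (adjusted p = 0.804).

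HSD17B6, an oxidative 3α-hydroxysteroid dehydrogenase that turns androstanediol back into dihydrotestosterone (chromosome 12, 57145945 to 57181574, plus strand), was low. Its level was 4.83, 3.15 and 2.94 CPM in DMSO and 1.41, 2.96 and 2.83 CPM in SAL, from 11 to 39 counts per library. In replicate 1 the SAL library had far fewer counts than the DMSO library, 11 against 39, while the other pairs were nearly level, with log2 changes of -0.08 and -0.05. The log2 fold change of -0.59 (95% interval -1.34 to 0.16, edgeR adjusted p = 0.271) therefore rests on replicate 1, and without that number it was -0.07 (adjusted p = 0.922). PRIM1, whose exons overlap 5.8% of the exon length of HSD17B6 on the opposite strand, fell by 0.65 on the log2 scale (adjusted p = 0.000698).

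DHRS9, a retinol dehydrogenase-like enzyme with 3α-hydroxysteroid oxidizing activity (chromosome 2, 169921299 to 169952677, plus strand), had 0 counts in all 3 DMSO libraries and 2, 0 and 3 counts in SAL. Both groups were at or under the floor, and no fold change is given.

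HSD17B4, the peroxisomal multifunctional enzyme that takes part in fatty acid β-oxidation and also oxidizes the 17-hydroxyl of steroids (chromosome 5, 118788160 to 118972894, plus strand), was the most abundant of the 10 in counts. Its level was 329, 178 and 262 CPM in DMSO and 450, 266 and 391 CPM in SAL, from 1304 to 3510 counts per library. The SAL library was the higher one of each pair, and SAL replicate 2 lay within the range of the DMSO group. The mean went from 257 ± 75.7 to 369 ± 93.9 CPM (SD, n = 3), and the log2 fold change was 0.53 (95% interval 0.34 to 0.73, standard error 0.09, edgeR adjusted p = 0.000517), with 0.45, 0.57 and 0.58 in the pairs. Without replicate 3, it was 0.51 (adjusted p = 0.0885).

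HSD17B11, a lipid droplet-associated short-chain dehydrogenase that oxidizes the 17-hydroxyl of androstanediol to androsterone (chromosome 4, 88257667 to 88312340, minus strand), had the largest increase of the 6 tested enzymes. Its level was 5.70, 4.65 and 5.34 CPM in the DMSO replicates and 17.2, 10.5 and 14.3 CPM in the SAL replicates, from 34 to 46 and 96 to 134 counts. All SAL libraries lay above all DMSO libraries, which held for 3.78% of all genes tested, and replicate 2 was the lowest of both groups. The mean went from 5.23 ± 0.534 to 14.0 ± 3.33 CPM (SD, n = 3), a 2.65-fold difference with a log2 fold change of 1.41 (95% interval 1.00 to 1.81, standard error 0.19, edgeR adjusted p = 7.73e-05). The pairs gave log2 changes of 1.55, 1.14 and 1.38, each larger than that of any other tested enzyme in the same pair. The DMSO libraries were within a factor of 1.23 of each other and the SAL libraries within 1.63.

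**Figure D2:**
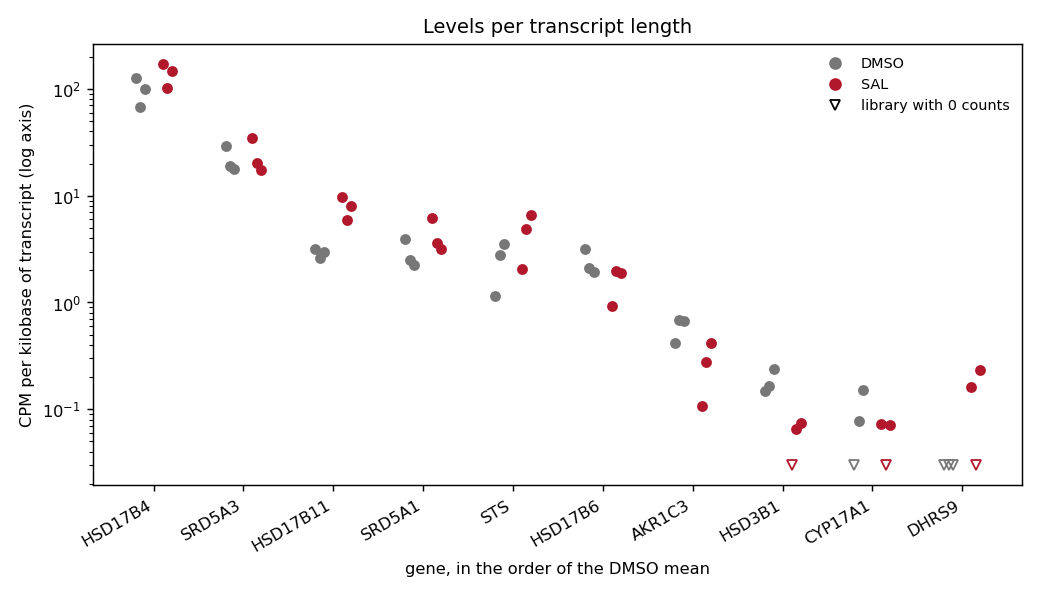
Levels of the 10 enzymes in CPM per kilobase of the canonical transcript (log axis), with 1 filled point per DMSO (grey) or SAL (red) library and open triangles for libraries with 0 counts, placed at the foot of the axis. The genes are ordered by the DMSO mean, from HSD17B4 at 97.6 to DHRS9 at 0, and the points of HSD17B11, SRD5A1, STS and HSD17B6 in DMSO have overlapping ranges.

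Levels can be set side by side between genes only per length, here in CPM per kilobase of the canonical transcript. In DMSO, HSD17B4 was at 97.6 ± 28.8, SRD5A3 at 21.8 ± 6.21, HSD17B11 at 2.94 ± 0.300, SRD5A1 at 2.90 ± 0.927, STS at 2.49 ± 1.21 and HSD17B6 at 2.41 ± 0.687 (SD, n = 3). HSD17B4 and SRD5A3 stood clear of the rest, while the 4 genes from HSD17B11 to HSD17B6 did not differ beyond their spread. In SAL, HSD17B4 was at 140 ± 35.7, SRD5A3 at 24.2 ± 9.30, HSD17B11 at 7.85 ± 1.87, STS at 4.50 ± 2.28, SRD5A1 at 4.32 ± 1.67 and HSD17B6 at 1.59 ± 0.570. HSD17B11, SRD5A1 and STS thus lay clear of HSD17B6, STS by a narrow margin. The order of the leading pair depends on the length used. With all annotated exons merged, which for HSD17B4 gives 24901 bases in place of 2628, SRD5A3 was at 11.5 and HSD17B4 at 10.3 in DMSO. The scarce enzymes AKR1C3 (0.595), HSD3B1 (0.184), CYP17A1 (0.0769) and DHRS9 (0) lay below all of these.

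Around these enzymes, 52 further genes of androgen metabolism were examined, and 29 passed the filter. Of these, 7 rose, 5 fell and 17 did not pass the test, where 11.5% of all genes tested rose and 9.37% fell. CYP3A43 and UGT2B17 passed the filter only through the group in which they were high, so their part in these counts supports nothing. The median log2 fold change of the 29 tested genes was 0.03, with a range from -2.67 (UGT2B17) to 2.15 (CYP3A43). In sterol delivery and side-chain cleavage, STARD4, a cholesterol transporter, rose by a log2 fold change of 0.81 (edgeR adjusted p = 7.65e-05) and CYP11A1, the side-chain cleavage enzyme, by 1.02 (adjusted p = 4.44e-05), while its electron carrier FDX1 fell by 0.29 (adjusted p = 0.0495). The call of FDX1 was marginal, with an adjusted p of 0.153 without replicate 2, 0.273 without replicate 3, 0.0644 without the low-count filter, 0.0504 with rRNA genes kept and 0.0547 without robust estimation. CYP11A1 had 94, 177 and 153 counts in DMSO and 206, 486 and 282 in SAL, with no overlap between the groups, although the enzyme that acts next, CYP17A1, was scarcely detected. CYB5A, the cytochrome that aids the lyase step of CYP17A1, rose by 0.40 (adjusted p = 0.00431, and 0.205 without replicate 3).

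PAPSS1, which makes the sulfate donor of sulfotransferases, rose by 0.49 on the log2 scale (edgeR adjusted p = 0.00862), and by 0.31 without replicate 3, where it lost its call (adjusted p = 0.312). The sulfotransferases SULT2A1 and SULT1E1 had no counts, and SULT2B1 was too low to test. Of 12 other 17β-hydroxysteroid dehydrogenases and related reductases, 9 were tested, and the only call was that of HSDL2, a peroxisomal relative, which fell by 0.32 (adjusted p = 0.0346), beside the rise of HSD17B4 and HSD17B11. HSDL2 had a log2 fold change of -0.21 without replicate 1 (adjusted p = 0.163) and an adjusted p of 0.193 without replicate 3. Of the retinol dehydrogenase-like group, RDH11, an androgen-regulated retinal reductase of the prostate, rose by 0.95 (adjusted p = 2.33e-06), from 2281 to 3428 counts in DMSO to 5329 to 6145 in SAL, and 2 others tested did not pass, although RDH10, at -0.40 (adjusted p = 0.121), was called at -0.51 without replicate 1 (adjusted p = 0.0356).

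Of the P450s that oxidize steroids, CYP3A43 rose by 2.15 (edgeR adjusted p = 0.000949) from 6 to 10 counts in DMSO to 15 to 50 in SAL. It passed the low-count filter only through the SAL libraries, so it had to differ to be tested, and its adjusted p was 0.0529 without replicate 3. CYP3A5 rose by 0.70 (adjusted p = 0.0389, 0.134 without replicate 2 and 0.165 without replicate 3). CYP39A1, an oxysterol hydroxylase, fell by 1.15 (adjusted p = 0.0153, and 0.162 without replicate 3). The reductase SRD5A2, the 4 further aldo-keto reductases examined and the 3 uptake transporters examined all missed the filter, as did AKR1C3.

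Among the enzymes of androgen glucuronidation, which make androgens soluble for export, UGT2B17 and UGT2B15 had the lowest log2 fold changes of the 29 genes tested. UGT2B17 had 42, 12 and 28 counts in DMSO and 3, 4 and 6 in SAL, and a log2 fold change of -2.67 (95% interval -3.61 to -1.72, edgeR adjusted p = 0.000456). It passed the low-count filter only through the DMSO libraries, so it had to differ to be tested. UGT2B15 had 103, 10 and 61 counts in DMSO and 19, 8 and 14 in SAL, with an overlap at replicate 2, and a log2 fold change of -2.03 (adjusted p = 0.00025). These genes are close copies, and reads shared by them were not counted. The third member of the group, UGT2B28, went the other way in its counts, 1, 0 and 3 in DMSO against 29, 10 and 38 in SAL. It was named after its values were seen, and it missed the low-count filter with all libraries. Without the filter its edgeR adjusted p was 2.06e-10. In that fit the values of UGT2B15 and UGT2B17 were also far smaller, 1.02e-09 and 1.51e-07, so it cannot be set beside the filtered values above. Without replicate 2, UGT2B28 passed the filter, with an edgeR adjusted p of 0.000366. It did so only through the SAL libraries, so it had to differ to be tested.

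**Figure D3:**
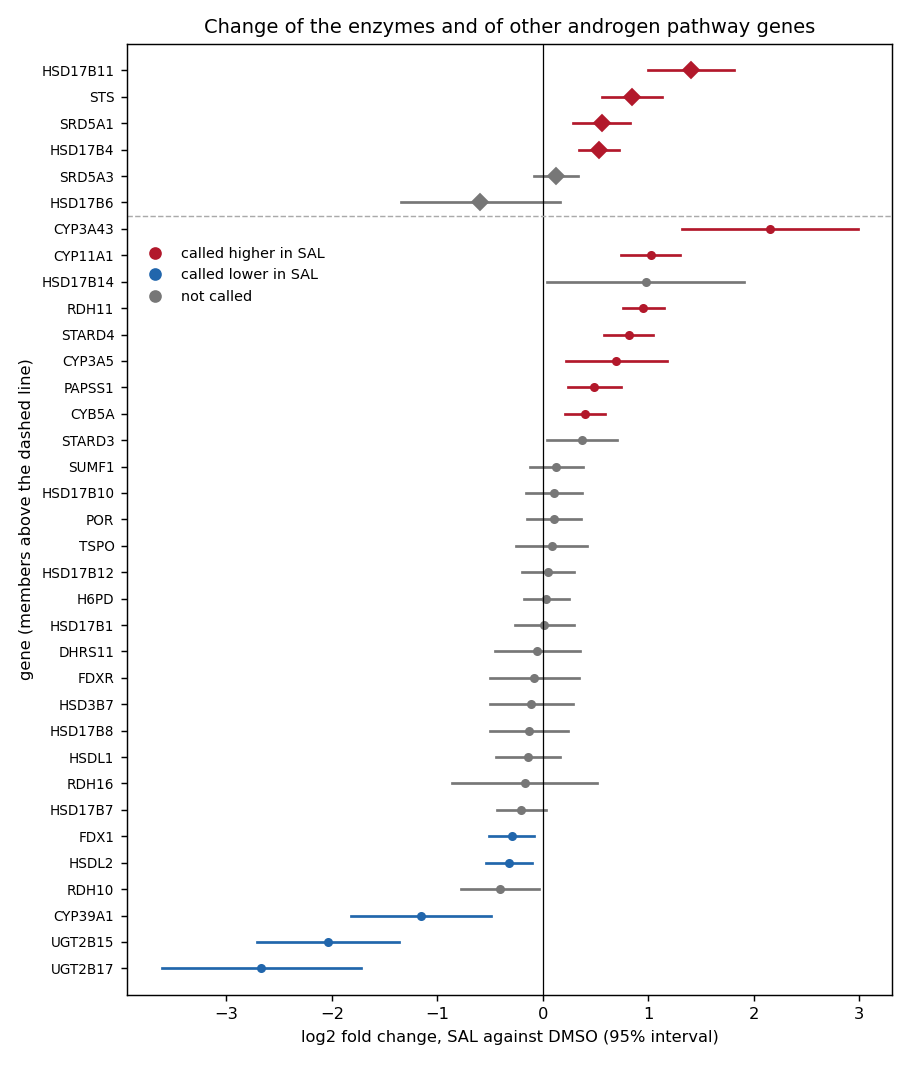
Log2 fold changes of SAL against DMSO with 95% intervals (edgeR) for the 6 tested enzymes (diamonds above the dashed line) and the 29 other tested genes of androgen metabolism (circles below it). Red marks genes that rose, blue genes that fell and grey genes that did not pass the test, with HSD17B11 at 1.41 leading the enzymes and UGT2B15 and UGT2B17 at -2.03 and -2.67 at the foot.

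The rises depended on the pairing of libraries by replicate number. With DESeq2 and the block, 4 enzymes rose and none fell, where 7.66% of all genes rose and 5.64% fell. Without the block, edgeR called none of the 6 enzymes, 1 had an unadjusted p under 0.05, and 0.107% of all genes rose. The log2 fold changes then stayed near their values, at 1.42 for HSD17B11 (adjusted p = 0.492), 0.85 for STS, 0.57 for SRD5A1 and 0.52 for HSD17B4 (adjusted p = 1.00 for each of these 3).

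**Figure D4:**
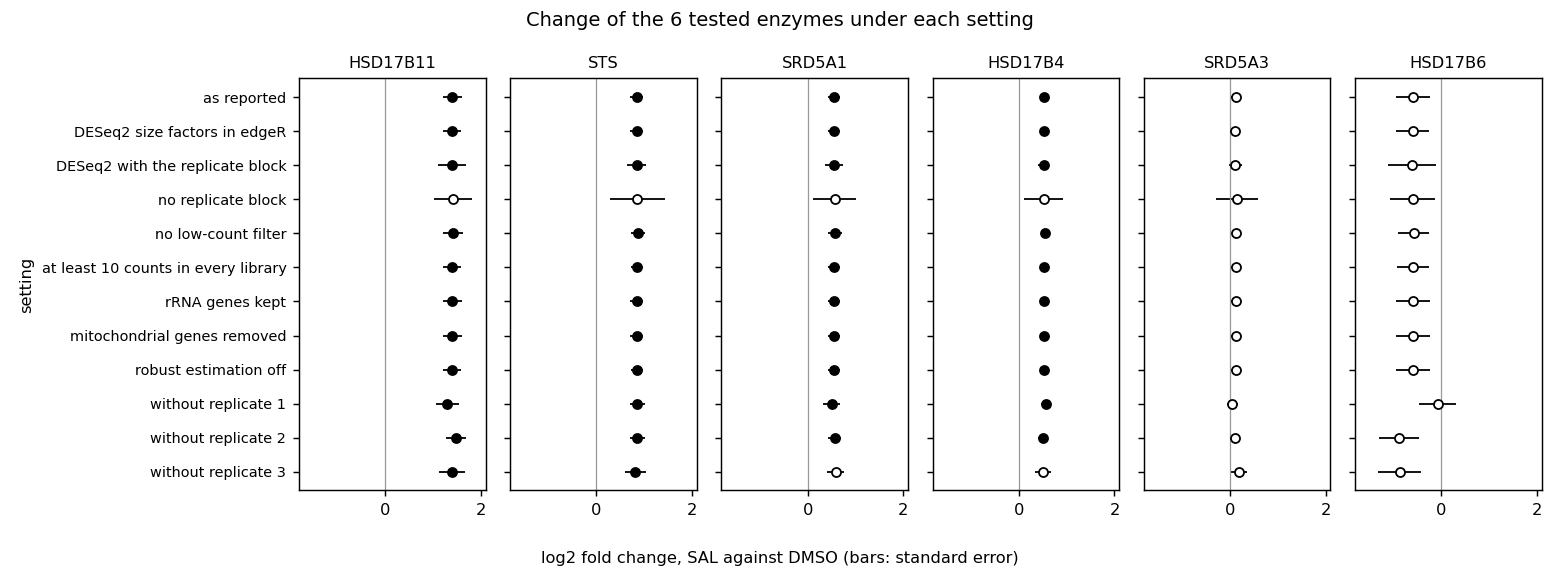
Log2 fold changes of SAL against DMSO (horizontal axis, bars show the standard error) of the 6 tested enzymes as reported and under 11 other settings. Filled points have an adjusted p under 0.05. HSD17B11 and STS are filled in all settings but the one without the replicate block, HSD17B4 and SRD5A1 lose their call also without replicate 3, and HSD17B6 moves to -0.07 without replicate 1.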

How the data were processed

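The deposited values are raw counts per gene symbol, which the authors made by trimming the reads, mapping read 1 of each pair against hg19 with TopHat2 2.1.0 and counting exonic reads without strand with HTSeq 0.11.2 and the gencode.v19 annotation. From these counts, 523 rRNA symbols were removed, low counts were filtered (edgeR filterByExpr), and SAL was compared with DMSO in all 16835 remaining genes by edgeR 4.0.16 (R 4.3.3): TMM, robust quasi-likelihood test, replicate number as a block, Benjamini-Hochberg adjustment, threshold 0.05. CPM use TMM-scaled library sizes, and changes per pair a prior count of 2. The paired test comes from the study's methods. Same-numbered libraries deviated together from the group means (r = 0.886, 0.856 and 0.739). Standard errors were obtained from the log2 fold change and the F statistic. The depth of 6931042 to 9776990 counts per library limits the scarce genes, and intervals on summed counts cover counting error only. The code was tested on simulated data. Positions and transcript lengths come from GRCh37 with a lifted newer GENCODE annotation. The enzymes and gene lists were chosen with earlier results of these data known. All 10 enzymes, every other pathway gene that was called, close copies and KLK3 were named by rule. Of the genes annotated over an enzyme's exons, only WBP1L, SRD5A3-AS1 and PRIM1 were named. Those left out include a gene model that shares 23.2% of the exon length of SRD5A3 on the same strand. The alternatives were DESeq2 1.42.0, its size factors in edgeR, no block, other filters, rRNA kept, mitochondrial genes removed, no robust estimation, and each replicate number left out. LNCaP libraries were not analysed here.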

Additional observations from a re-analysis of the deposited data

How the results depend on the processing

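The 6 fold changes kept their sign under all 11 alternatives (66 values), and 60 also kept their side of the threshold. The other 6 lost their call, 4 without the replicate block and 2 without replicate 3. The number of enzymes that rose was 4 as reported and 0 without the replicate block, and 2 to 4 when 1 replicate number was left out, beside shares of all genes that rose of 4.41% without replicate 3, 9.1% without replicate 2 and 14.6% without replicate 1. None fell under any alternative, in edgeR or DESeq2. Of the 52 other pathway genes, 7 rose as reported, 0 without the block, and 3 to 7 with 1 replicate number left out. The 7 without replicate 2 include UGT2B28, which then passed the filter, and not CYP3A5. The number that fell was 5 as reported, 2 with DESeq2, 2 with at least 10 counts in every library, where CYP39A1, UGT2B15, UGT2B17 and CYP3A43 were no longer tested, 0 without the block, and 2 to 5 with 1 replicate number left out. The 5 without replicate 1 include RDH10 and not HSDL2. Over all genes tested, 11.5% rose and 9.37% fell as reported, and 0.107% and 0.0178% without the block. The share that fell was 5.64% with DESeq2 and 10.1% with at least 10 counts in every library. With 1 replicate number left out, it was 2.84% to 11.7%. With DESeq2, FDX1, HSDL2 and CYP39A1 lost their call, at adjusted p of 0.174, 0.119 and 0.102, as did CYP3A5 at 0.179. Without the block, at an unadjusted p under 0.05, 1 enzyme and 2 other genes were higher and 2 lower. The cause was not tested. Over the alternatives with the block, the log2 fold change was 1.30 to 1.49 for HSD17B11, 0.82 to 0.86 for STS, 0.50 to 0.58 for SRD5A1, 0.50 to 0.58 for HSD17B4, 0.05 to 0.19 for SRD5A3 and -0.88 to -0.07 for HSD17B6. At 0 to 6 counts per library, CYP17A1, HSD3B1, AKR1C3 and DHRS9 are too scarce for a difference to be read.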
